A study of Mus musculus with 6 samples.

Results

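The genes described here are the protein-coding histone genes of the Hist1, Hist2, Hist3 and Hist4 clusters in mammary tumors of the mouse. They were chosen by symbol, from the annotation of mouse build GRCm38, and 67 genes of the 54532 gene IDs measured met the rule. All tumors came from NeuT/ATTAC mice, which carry MMTV-NeuT, an Erbb2 oncogene driven in mammary epithelium by the MMTV promoter, and FAT-ATTAC, a transgene that lets the dimerizer AP20187 kill adipocytes, crossed into the FVB strain. AP20187 (0.4 mg/kg) was given to every mouse starting at 6 weeks, which induced mammary fibrosis, and from 8 weeks either 100 ug of an anti-PD-1 mAb or a matching IgG. RNAseq was available for 3 IgG and 3 anti-PD-1 tumors. The labels do not say whether the 3 tumors of a group came from separate animals, and the legend of the study speaks of pooled RNA, so that the p-values measure the spread between these libraries.

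Core histones H2A, H2B, H3 and H4 wrap DNA into nucleosomes, and the linker histone H1 binds where DNA enters and leaves. The clustered genes make most of their RNA in S phase, when new DNA has to be packaged. These RNAs are short and without introns, and most end in a stem-loop bound by Slbp in place of a poly(A) tail, so that a library selected on poly(A) takes up few of them. Most replacement histones, such as H3f3b and H2afz, are encoded outside the clusters, and their RNAs carry a poly(A) tail and are made throughout the cell cycle. Total RNA was extracted, but neither the labels nor the methods say whether poly(A) RNA was selected.

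The stem-loop is shown for the most abundant H1 and H4 genes and for an H3 gene, because it is the feature that sets these RNAs apart. The sequences are those of the annotated transcripts on GRCm38, 5′ to 3′, and capitals mark the stem and its loop.
Hist1h1c: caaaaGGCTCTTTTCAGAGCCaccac
Hist2h3c2: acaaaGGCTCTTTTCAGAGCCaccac
Hist1h4h: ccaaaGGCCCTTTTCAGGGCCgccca
Hist1h4i: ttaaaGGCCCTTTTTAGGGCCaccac
Hist1h4j: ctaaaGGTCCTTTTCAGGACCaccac
The capitals lie at chr13:23739512-23739527 on the plus strand in Hist1h1c, chr3:96238485-96238500 on the minus strand in Hist2h3c2, chr13:23531458-23531473 on the plus strand in Hist1h4h, chr13:22040966-22040981 on the minus strand in Hist1h4i and chr13:21735437-21735452 on the plus strand in Hist1h4j. The stems of the H1 and H3 genes begin with GGCTCT, whereas those of the H4 genes begin with GGCCCT or GGTCCT.

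A paired stem of this form (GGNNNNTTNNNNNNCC, 6 base pairs around 4 loop bases) was searched on the transcript strand within 100 bases after the stop codon. It was found in 44 of the 67 members, from 21 to 58 bases after the stop codon. Of 20913 other protein-coding genes, 13 held it (0.0622%). Of the 23 members without a match, 15 have annotated transcripts that end fewer than 16 bases after the stop codon, too short to hold it. The 44 stem-loops had 6 different sequences, and none of the 33 in H1, H2A, H2B and H3 genes had a sequence seen among the 11 in H4 genes. A poly(A) signal (AATAAA or ATTAAA) stood in the last 50 bases of a coding transcript in 17 members, among them Hist1h1c, Hist1h4i and Hist1h4h, against 78.7% of other protein-coding genes. Neither this signal nor the stem-loop was found in Hist1h2bc, the highest H2B gene, though a coding transcript runs 742 bases past its stop codon. In 22 members the annotated exons run at least 100 bases past the stem-loop, by 840 bases in Hist1h1c and 4884 in Hist1h1d. FPKM is divided by this length, so that the level of Hist1h1d was computed over 7425 bases where RefSeq gives the gene 776.

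Most of the histone genes were low or not detected, though no more often than gene IDs as a whole. Of the 67 members, 12 were at 0 FPKM in all 6 tumors, 55 were above 0 in at least 1 tumor, and 26 reached a mean of at least 0.5 FPKM, the minimum for testing. Of these, 9 reached a mean of 2 FPKM and 4 reached 10 FPKM. For comparison, 15069 of all 54532 IDs, noncoding genes included, met the 0.5 FPKM minimum. With no minimum, 28732 IDs could be tested, among them the 55 members. Both are smaller shares than among the histone genes, so the counts do not set these genes apart as poorly detected. Just below the minimum stood Hist1h2ah (0.452 FPKM) and Hist1h2bk (0.486 FPKM), and just above it Hist1h4m (0.511 FPKM) and Hist1h2ai (0.548 FPKM). By class, 2 of 6 H1 genes, 4 of 18 H2A, 8 of 18 H2B, 4 of 12 H3 and 8 of 13 H4 genes reached the minimum. The 4 highest genes, Hist1h1c, Hist1h2bc, Hist1h4i and Hist1h4h, made up 72.1% of the FPKM summed over all members and between 65.99% and 77.8% in single tumors.

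**Figure D1:**
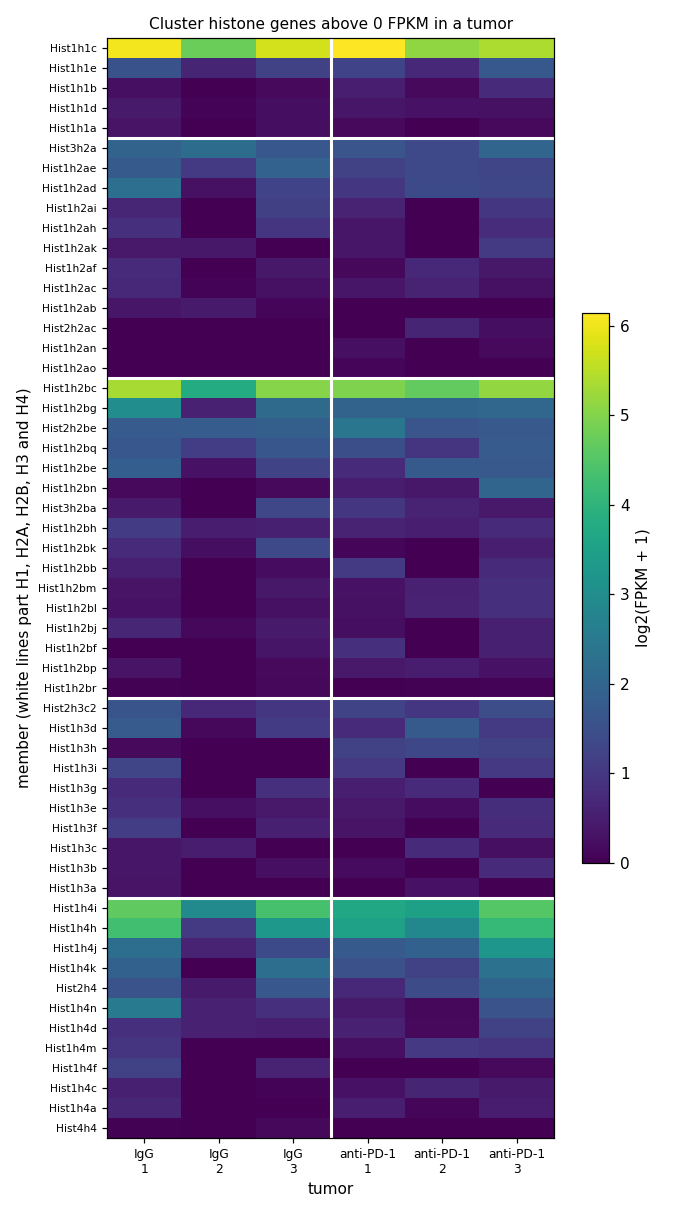
log2(FPKM + 1) of the 55 members above 0 in at least 1 tumor (rows, ordered by class and mean level) in the 3 IgG and 3 anti-PD-1 tumors (columns). Hist1h1c, Hist1h2bc, Hist1h4i and Hist1h4h stand out, and the column of IgG replicate 2 is darker than every other column in 17 of the 26 tested members.

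The values of every member were whole multiples of 1 read, which gave the reads behind them. The 67 genes together held between 2036 and 5341 reads per tumor, and the gene IDs with whole reads together held 21075641 to 23852764. The worth of 1 read gave slightly larger totals, 22009893 to 25596232 reads per tumor, and the shares were taken of these. They were 0.0243% (Wilson 95% CI 0.0236 to 0.0249) in IgG replicate 1 and 0.00848% (0.00812 to 0.00886) in IgG replicate 2, the highest and the lowest of the 6, or 0.0253% and 0.00858% of the reads on IDs with whole reads. These intervals cover counting error only. Only 14 members had at least 10 reads in every tumor, and 4 had at least 100.

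Members at 0 included genes with shared sequence. For 5 members, Hist2h2aa1, Hist2h2aa2, Hist2h2bb, Hist2h3b and Hist2h3c1, no 100-base transcript window was their own, and all 5 were listed at 0. A window counted as shared when another gene held it on either strand. The antisense RNA genes Gm20632, Gm20633 and Gm20628 span Hist2h2aa2, Hist2h2aa1, Hist2h2bb and Hist2h3b. Such overlap by itself can leave a gene no window of its own. Whether reads could be assigned to 1 gene was not tested, and a 0 in these 5 members says nothing about expression. Exons of 21 members overlap an annotated gene on the other strand, including all 18 H2A genes. Of these 21, 9 were listed at 0 in all tumors and 4 reached 0.5 FPKM, whereas 3 of the 46 members without such an overlap were at 0 and 22 reached 0.5 FPKM. Leaving out the 5 members with no window of their own, 5 of 17 with an overlap and 2 of 45 without were at 0. This does not part overlap from shared sequence, because windows were compared on both strands. The genes on the other strand include 17 miRNA models, all at 0 in every tumor, as were 79.3% of all 2207 miRNA genes. The other 5 are antisense RNAs, of which the highest averaged 1.88 FPKM. Whether strand was used in counting is not stated, and the part of these overlaps in the zeros was not tested. Hist1h1t, the testis H1, and Hist1h2ba, the testis H2B, were also at 0, and neither overlaps such a gene.

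**Figure D2:**
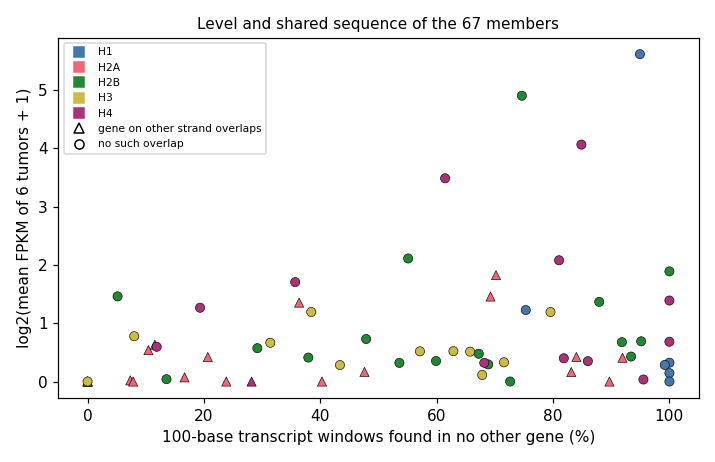
Mean level of each of the 67 members, as log2(FPKM + 1), against the percentage of its 100-base transcript windows that occur in no other gene on either strand. Colors give the histone class and triangles the 21 members overlapped by a gene on the other strand, none of which averaged above 2.54 FPKM.

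Among the linker histones, Hist1h1c (ENSMUSG00000036181, chr13:23738808-23740367, plus strand) was the highest of all members. It measured 64.8, 26.0 and 52.0 FPKM in the IgG tumors and 69.9, 34.2 and 40.7 FPKM in the anti-PD-1 tumors. The groups overlapped, at 47.6 ± 19.8 FPKM (SD, n = 3) and 48.3 ± 19.0 FPKM (SD, n = 3), and the log2 fold change was 0.05 (SE 0.39, limma adjusted p = 0.968). Hist1h1e, another somatic H1, was far lower, at 1.91, 0.561 and 1.32 FPKM in IgG and 1.38, 0.641 and 2.22 FPKM in anti-PD-1 tumors. Its exons overlap those of Hist1h2be on the same strand, so that reads there can belong to either gene. Hist1h1b, the third of the class by level, rested on 3, 0 and 2 reads in IgG and 8, 2 and 12 reads in anti-PD-1 tumors and was not tested.

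The share of members that reached 0.5 FPKM was lowest among the H2A genes, at 4 of 18. Hist3h2a, alone with Hist3h2ba in the cluster on chromosome 11, led the class with 2.90, 3.51 and 2.18 FPKM in IgG and 2.09, 1.56 and 3.001 FPKM in anti-PD-1 tumors. IgG replicate 2, the lowest tumor for most members, was here the highest. The exons of Hist3h2a overlap those of Trim17 on the same strand. Hist1h2ae (2.32, 1.07 and 2.79 FPKM in IgG, 1.28, 1.58 and 1.44 FPKM in anti-PD-1) and Hist1h2ad (3.73, 0.219 and 1.361 FPKM, then 0.956, 1.59 and 1.47 FPKM) followed. The groups overlapped in all 3 of these genes.

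Among the H2B genes Hist1h2bc (ENSMUSG00000018102, chr13:23684199-23692908, plus strand) was the highest, and it is one of the few members with more than 1 exon block. Its values were 39.9, 12.9 and 31.5 FPKM in IgG and 29.9, 24.4 and 34.5 FPKM in anti-PD-1 tumors. The anti-PD-1 tumors all lay inside the range of the IgG tumors, and the log2 fold change was 0.20 (SE 0.39, limma adjusted p = 0.858). Hist1h2bg measured 7.13, 0.472 and 3.38 FPKM in IgG against 2.91, 2.94 and 3.07 FPKM in anti-PD-1 tumors, so that its spread lay within the IgG group. Hist2h2be, whose annotated transcript ends in a poly(A) signal, was the steadiest of the 3 between IgG tumors, at 2.38, 2.45 and 2.66 FPKM, and measured 4.35, 2.08 and 2.30 FPKM in anti-PD-1 tumors.

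The H3 genes were low throughout, none averaging above 1.28 FPKM. Hist2h3c2 led them, at 2.05, 0.613 and 0.964 FPKM in IgG and 1.38, 0.970 and 1.73 FPKM in anti-PD-1 tumors. Hist1h3d followed at 2.401, 0.1001 and 1.12 FPKM and 0.657, 2.34 and 1.08 FPKM. In both genes the groups overlapped.

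Hist1h3h (ENSMUSG00000101355, chr13:21717659-21718069, plus strand) was the 1 tested member of 26 past an unadjusted p under 0.05. It measured 0.111, 0 and 0 FPKM in IgG and 1.33, 1.505 and 1.33 FPKM in anti-PD-1 tumors, which is 1, 0 and 0 reads against 14, 15 and 13 reads. Every anti-PD-1 tumor was above every IgG tumor. The log2 fold change on the FPKM + 1 scale was 1.20 (SE 0.19), with an unadjusted p of 0.000387 and a limma adjusted p of 0.344, which does not pass. It reached the minimum of 0.5 FPKM only through the anti-PD-1 tumors (mean 1.39 FPKM, against 0.037 FPKM in IgG), so that among the tested members it had to differ, and its p-values are a description. The exact permutation test gave p = 0.1, the smallest that 3 against 3 tumors allow. The reads summed per group stood in a ratio of 40.2 (exact 95% counting interval 6.83 to 1624). Only 8.01% of its 100-base windows occur in no other gene, so that assignment between near-identical H3 genes is uncertain. Summed over the 12 H3 genes, the levels were 9.49, 1.31 and 3.85 FPKM in IgG and 5.56, 6.55 and 7.50 FPKM in anti-PD-1 tumors, and the groups overlapped.

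The H4 genes were led by Hist1h4i (ENSMUSG00000060639, chr13:22040636-22041362, minus strand), at 24.0, 6.65 and 19.7 FPKM in IgG and 11.7, 10.3 and 21.9 FPKM in anti-PD-1 tumors. Hist1h4h (ENSMUSG00000060981, chr13:23531050-23531519, plus strand) had the largest fold between its highest and lowest tumor among the 4 highest members, 17.3, from 1.06 FPKM in IgG replicate 2 to 18.4 FPKM in IgG replicate 1. Its other tumors stood at 8.63 FPKM in IgG and 10.5, 6.32 and 16.3 FPKM in anti-PD-1, and the log2 fold change was 0.64 (SE 0.77, limma adjusted p = 0.760). Hist1h4j measured 3.70, 0.538 and 1.59 FPKM in IgG and 2.32, 2.77 and 8.43 FPKM in anti-PD-1 tumors, with 1 anti-PD-1 tumor above all others.

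The comparison of anti-PD-1 with IgG asked whether the antibody changed the level of these genes. With limma, 1 of the 26 tested members passed an unadjusted p under 0.05, against 12.3% of the 15069 genes tested. None passed an adjusted p under 0.05, and 0.0% of all genes did (1848 genes had an unadjusted p under 0.05, and voom on the recovered reads gave 1 gene with an adjusted p under 0.05). The groups did not overlap for 2 of the 26 tested members, Hist1h3h and Hist1h2bn, against 18.1% of all genes tested. Both genes reached the minimum only through the anti-PD-1 tumors (IgG means of 0.037 and 0.076 FPKM), so that nothing is read from this count. The groups also did not overlap for Hist1h2ab, which was under the minimum for testing and went the other way, with 3, 4 and 1 reads in IgG and 0 in each anti-PD-1 tumor. Hist1h2bn and Hist1h2ab were named after their values were seen. Hist1h2bn held 1, 0 and 1 reads in IgG and 4, 3 and 27 reads in anti-PD-1 tumors, with a limma adjusted p of 0.452. With no minimum, 55 members were tested and 2 passed an unadjusted p under 0.05, Hist1h3h higher and Hist1h2ab lower, against 8.01% of the 28732 genes then tested. Over these 55 members, which no minimum had selected, the fitted difference was above 0 in 35, with a median log2 fold change of 0.086. Over the 26 above the minimum it was above 0 in 18, with a median of 0.10 against 0.0072 over all genes tested. Of the 26, 5 reached the minimum through 1 group only, which set the sign of their difference in mean FPKM. Hist1h3h, Hist1h2bn, Hist1h3i and Hist1h4m did so through the anti-PD-1 tumors, and Hist1h2ai through the IgG tumors. Over the 21 members with both group means at or above 0.5 FPKM, the median was 0.088 and 14 were above 0.

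The sign of these medians turned with 1 tumor. Without IgG replicate 2, the median of the same 55 members was -0.16 on the log2 scale and 19 were above 0, that of the same 26 was -0.23 with 6 above 0, and that of the same 21 was -0.26 with 2 above 0. Hist1h2ae was then lower at an unadjusted p of 0.035, against a share of 6.36% of all genes in this fit. Applied without this tumor, the minimum also let in Hist1h2ah, Hist1h2bk, Hist1h3f and Hist1h3g, only through the IgG tumors, and nothing is read from them.

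**Figure D3:**
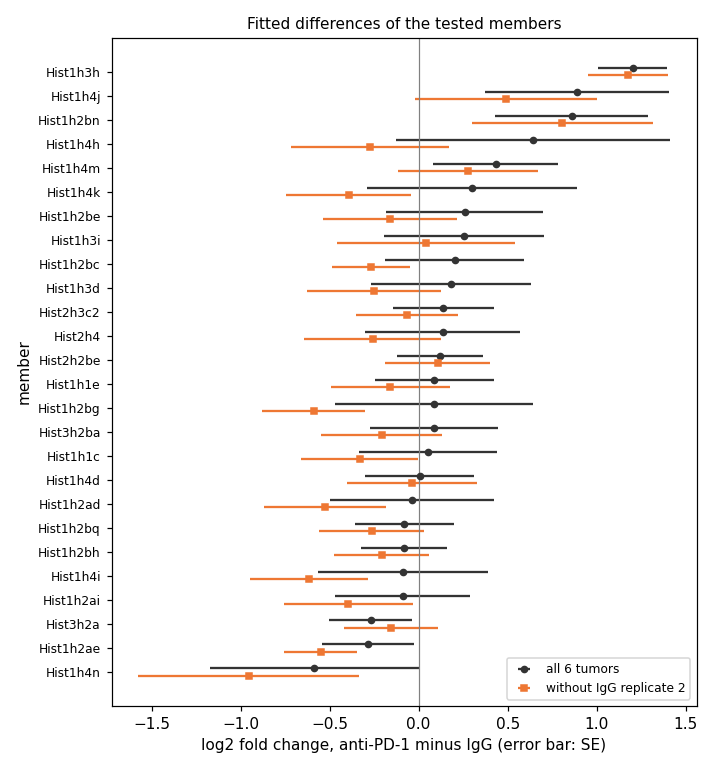
Fitted log2 fold change of the 26 tested members, anti-PD-1 minus IgG, with all 6 tumors (circles) and without IgG replicate 2 (squares). Bars are standard errors, and 6 of these 26 members lie to the right of 0 in the second fit, with a median of -0.23.

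The tumors differed from each other more than the groups did. The summed level of the 67 genes was 207, 60.8 and 151 FPKM in the IgG tumors and 157, 108 and 172 FPKM in the anti-PD-1 tumors. The group means of 139 ± 73.7 FPKM (SD, n = 3) and 145 ± 33.5 FPKM (SD, n = 3) gave a ratio of 1.04, and 0.814 without IgG replicate 2. IgG replicate 2 was the only lowest tumor in 17 of the 26 tested members and tied for lowest at 0 in 4 more, against 21.3% (ties left out) of all genes tested, and anti-PD-1 replicate 2 in the next most, 5 members. The class sums followed the same tumor: H4 genes gave 59.6, 9.57 and 37.6 FPKM in IgG and 28.7, 24.2 and 58.6 FPKM in anti-PD-1 tumors. H1 genes gave 67.5, 26.6 and 53.7 FPKM and 72.1, 35.2 and 43.9 FPKM, and H2B genes 58.2, 17.8 and 46.2 FPKM and 44.4, 35.4 and 52.4 FPKM. In these bulk tumors, fewer cells in S phase, less histone RNA per cell and less uptake of histone RNA into the library cannot be told apart.

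**Figure D4:**
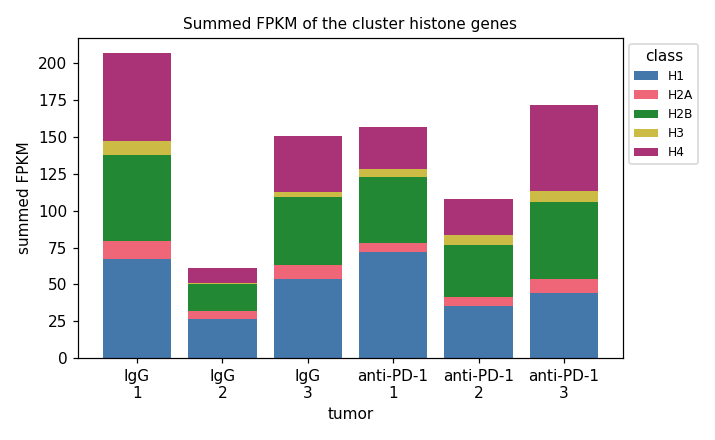
FPKM summed over the members of each histone class, stacked per tumor from 0. IgG replicate 2 reaches 60.8 FPKM and IgG replicate 1 reaches 207 FPKM, with the 3 anti-PD-1 tumors between them.

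IgG replicate 2 was not the shallowest library, with 23999469 reads as the worth of 1 read gives them, but had the fewest gene IDs above 0 (20616, against up to 23706). Some markers of other cells stood apart in it from the other IgG tumors, or from all other tumors. The 4 skeletal muscle markers summed to 98.6 FPKM there, against 1.501 and 4.09 FPKM in the other IgG tumors, and to 59.6, 105 and 0.373 FPKM in the anti-PD-1 tumors. The 4 T cell markers summed to 2.79 FPKM in it and to between 0.197 and 1.24 FPKM elsewhere. Acta1, the skeletal muscle actin, was at 0 in IgG replicate 1. The 4 fibroblast markers summed to 45.3 FPKM in it, the lowest of the 6 tumors, against 55.5 to 207 FPKM elsewhere. This sum is mostly Col1a1 and Col1a2, and Dcn, at 14.2 FPKM, was the highest of the IgG tumors in it. The sums of the macrophage, neutrophil, endothelium, adipocyte and erythroid markers lay inside the range of the other tumors, at 42.0, 3.78, 10.5, 3.75 and 84.5 FPKM. The 6 epithelial markers summed to 2335 FPKM in it, inside the range of 1914 to 3648 FPKM over the other tumors, but Krt19 was at 77.9 FPKM against 1.70 to 7.84 FPKM elsewhere and Cdh1 at 125 FPKM against 62.4 to 93.9 FPKM. The part of these cells in the low histone values was not tested.

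The most abundant replacement histone genes, whose RNAs are polyadenylated, were measured at high levels. H3f3b, an H3.3 gene, stood at 228, 251 and 196 FPKM in IgG and 259, 260 and 180 FPKM in anti-PD-1 tumors. H2afz, which encodes H2A.Z, stood at 167, 115 and 89.8 FPKM and 157, 170 and 118 FPKM. The clustered H3 genes made up between 0.407% and 3.07% of the FPKM of clustered H3, H3f3a and H3f3b together. Clustered H2A genes made up 1.77% to 4.68% beside 6 replacement H2A genes, and clustered H1 genes 16.1% to 37.7% beside H1f0 and H1fx. Of 17 replacement genes listed, 12 were tested, 2 were higher and 1 lower at an unadjusted p under 0.05, against 12.3% of all genes tested, and none passed adjustment. H2afj, an H2A variant, was the clearest, at 41.3, 21.1 and 27.9 FPKM in IgG and 98.4, 66.1 and 77.3 FPKM in anti-PD-1 tumors, without overlap (log2 fold change 1.43, SE 0.27, limma adjusted p = 0.344). H2afy, a macroH2A gene, measured 15.4, 14.2 and 13.7 FPKM against 19.9, 18.7 and 17.1 FPKM (limma adjusted p = 0.397). H1fx, a linker histone, measured 2.501, 6.88 and 13.9 FPKM against 3.53, 1.12 and 0.381 FPKM, and its groups overlapped (limma adjusted p = 0.372).

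Other RNAs that lack a poly(A) tail were a second view of what the libraries took up. Of 11 listed, Rmrp, Rpph1, Rny1, Rny3 and Vaultrc5 were listed at 0 in all 6 tumors. Rny1, Rny3 and Vaultrc5 are 112, 102 and 143 bases long. The part of RNA length and of read assignment in the low values of this list was not tested. Rn7s1 and Rn7s2, the 7SL RNAs of the signal recognition particle, did not exceed 0.982 FPKM. Rn7sk, which holds the elongation factor P-TEFb inactive, was at 10.2, 8.06 and 5.45 FPKM in IgG and 22.9, 10.1 and 10.8 FPKM in anti-PD-1 tumors. Terc, the telomerase RNA, ranged from 0.197 FPKM, in IgG replicate 2, to 7.60 FPKM and Scarna2, a Cajal body RNA, from 1.13 to 7.32 FPKM. Malat1, whose end is a triple helix rather than a tail, ranged from 99.4 to 281 FPKM. None of the 4 tested passed an unadjusted p under 0.05. Their median log2(FPKM + 1) minus the mean of the 6 tumors was lowest in IgG replicate 2, at -0.53, then IgG replicate 3, at -0.42. The cluster histone genes had medians of -0.59 and 0.0036 in these 2 tumors. Only 1 of the 4, Terc, was itself lowest in IgG replicate 2. A part of uptake in the low histone values of that tumor was not tested.

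Slbp, the stem-loop binding protein, was at 6.23, 7.88 and 4.43 FPKM in IgG and 5.19, 7.20 and 4.70 FPKM in anti-PD-1 tumors, with overlap and a log2 fold change of -0.09 (SE 0.24, limma adjusted p = 0.905). IgG replicate 2, low in histone RNA, was the highest of the 6 tumors for Slbp. Of 17 tested genes for histone RNA processing and transcription, Casp8ap2 was the only one at an unadjusted p under 0.05, against 12.3% of all genes tested. Casp8ap2, a scaffold for cleavage of histone RNA ends, measured 2.57, 4.63 and 3.49 FPKM in IgG and 2.10, 2.15 and 1.48 FPKM in anti-PD-1 tumors (log2 fold change -0.63, SE 0.22, limma adjusted p = 0.370). Ncbp2 and Srrt, of the cap-binding complex and its partners, were the most abundant of the list, and the groups overlapped in both.

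Of 21 histone chaperone genes, all tested, 1 was higher and 2 lower at an unadjusted p under 0.05, against 12.3% of all genes tested. Ipo4, an importin for H3 and H4, measured 6.15, 5.77 and 6.47 FPKM in IgG and 9.95, 9.63 and 9.29 FPKM in anti-PD-1 tumors (limma adjusted p = 0.344). Nasp, a chaperone of H3 and H4, measured 5.54, 8.86 and 6.94 FPKM against 4.90, 4.93 and 2.76 FPKM (limma adjusted p = 0.380). Atrx, which deposits H3.3 with Daxx, measured 12.7, 15.4 and 14.1 FPKM against 8.78, 11.2 and 9.16 FPKM (limma adjusted p = 0.355). Npm1 and Ssrp1, the most abundant of the list, overlapped between the groups.

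The S-phase genes were higher in fit in 27 of 30, with a median log2 fold change of 0.30, but 2 passed an unadjusted p under 0.05, against 12.3% of all genes tested. Without anti-PD-1 replicate 2 none passed (9.37% of all genes), and without anti-PD-1 replicate 3 there were 8 (7.71% of all genes). Without IgG replicate 1 there were 4 (17.8%) and without IgG replicate 2 there was 1 (6.36%). Tk1, which makes thymidine monophosphate, measured 11.7, 6.42 and 8.58 FPKM in IgG and 13.6, 20.2 and 13.8 FPKM in anti-PD-1 tumors (limma adjusted p = 0.355). Mcm2, a subunit of the replicative helicase, measured 6.65, 4.35 and 6.41 FPKM against 9.94, 9.57 and 7.15 FPKM (limma adjusted p = 0.378). Pcna, the sliding clamp, and Mki67 overlapped between the groups. IgG replicate 2 was the lowest tumor in 18 of the 30. The tumors were otherwise not in the same order for both lists: anti-PD-1 replicate 2 had the highest S-phase median, 0.43 above the mean of the 6 tumors on the log2 scale, and a histone median of -0.17. In anti-PD-1 replicate 3 the S-phase median was -0.21 and the histone median 0.42.

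**Figure D5:**
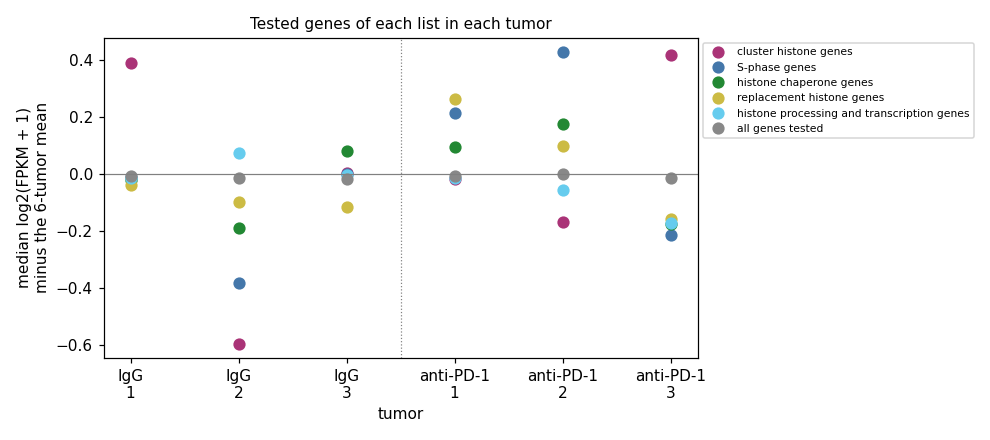
Median over the tested genes of each list of log2(FPKM + 1) minus the mean of the 6 tumors, per tumor. The cluster histone genes span -0.59 in IgG replicate 2 to 0.42 in anti-PD-1 replicate 3, while the median of all 15069 genes tested stays near 0.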

How the data were processed

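RNAseq of 6 mammary tumors was analyzed from FPKM values deposited by the authors for 54532 Ensembl gene IDs per tumor. The submitters' processing notes name cutadapt 3.5, Bowtie2 2.4.1, RSEM 1.3.1 and mm10, whereas how the FPKM was made, whether poly(A) RNA was selected and whether strand was counted are not given in the sources used here. Gene models were those of GENCODE M21 (GRCm38), which matched 54495 IDs, and RefSeq spans came from GRCm38.p6. FPKM times merged exon length fell within 0.1 of whole multiples of 1 read in every tumor for 53644 IDs, and 97.0% to 97.3% of values above 0 were whole. Groups came from the labels, and members and lists were chosen with earlier results of these data known.

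Values were divided by median-of-ratios factors (1.00 to 1.01), 1 was added and log2 taken. Genes with a mean deposited FPKM of at least 0.5 entered a linear model in limma 3.58.1 under R 4.3.3 (eBayes with trend, two-sided, Benjamini-Hochberg adjustment). The study's count test was not used, because the files hold no counts. The minimum was at first set on the scaled FPKM and moved to the deposited FPKM after results had been seen, to follow an earlier processing of these files; the scaled minimum is kept as an alternative. Named genes were the 3 highest of each class, members at an unadjusted p under 0.05, Slbp and, from each other list, up to 4 genes by p and the 2 highest; all listed RNAs without a poly(A) tail were described. Alternatives changed the pseudocount, filter, scaling, trend and block, left out each tumor, or ran voom on recovered reads. The scripts were tested on simulated data. The result of 1 marker list is not reported here. Python 3.11.15 was used for tables and figures.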

Additional observations from a re-analysis of the deposited data

How the results depend on the processing

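Depth limits most members: 3 reads, the limit that a count of 0 allows, are worth 0.285 to 0.332 FPKM in Hist1h3h, and 12 members had no read. The minimum of 0.5 set on the scaled FPKM, added after seeing the data, tested 15040 genes and left the counts of the members and of the processing, replacement, chaperone and S-phase lists as they were. No setting gave a member an adjusted p under 0.05. Members at an unadjusted p under 0.05 numbered 2 with 0.1 added to the FPKM (12.3% of all genes), 2 without the filter (8.01%), 0 at a mean FPKM of at least 2 (13.8%, where 9 members, without Hist1h3h, were tested), 0 with voom on recovered reads (12.3%, 23 members, again without Hist1h3h, which fell under its minimum of 10 mean reads), and 1 to 3 when 1 tumor was left out (all genes 6.36% without IgG replicate 2 to 17.8% without IgG replicate 1). The median log2 fold change of members was lowest when IgG replicate 2 was left out, at -0.26 over 30 members, of which 4 passed the minimum only through the IgG tumors (-0.16 over 55 members with no minimum, added after seeing the data), and highest when IgG replicate 1 was, at 0.32, and the ratio of summed FPKM from 0.814 to 1.38. Members detected numbered 50 at a mean of 0.1 FPKM and 55 above 0 in a tumor. Leaving out 1 tumor gave 0 to 2 processing genes, 1 to 2 replacement genes, 1 to 3 chaperone genes and 0 to 8 S-phase genes at an unadjusted p under 0.05, to be read against the same shares of all genes. The lowest processing count came without IgG replicate 2, IgG replicate 3 or anti-PD-1 replicate 3 and the highest without IgG replicate 1, the lowest chaperone count without IgG replicate 2, and the lowest S-phase count without anti-PD-1 replicate 2 and the highest without anti-PD-1 replicate 3. Tumors with the same replicate number had deviations correlated at -0.164, 0.00508 and 0.194, so that the numbers do not pair them. With the replicate block, 11.4% of all genes had a limma unadjusted p under 0.05. In this fit 1 member, 1 processing gene, 1 replacement gene, 3 chaperone genes and 1 S-phase gene passed.

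Of 32 named genes tested, 16 changed sign in some setting, all with an adjusted p above 0.05. Under quantile normalization the log2 fold change was -0.066 for Hist1h1c, -0.065 for H3f3b, -0.026 for Ssrp1 and -0.13 for Pcna. For Hist1h2ad it was 0.22 with 0.1 added and 0.32 with voom. With 1 tumor left out it ran from -0.33 to 0.32 for Hist1h1c, -0.16 to 0.34 for Hist1h1e, -0.53 to 0.45 for Hist1h2ad, -0.27 to 0.52 for Hist1h2bc, -0.59 to 0.65 for Hist1h2bg and -0.13 to 0.28 for Hist2h2be. It ran from -0.25 to 0.56 for Hist1h3d, -0.066 to 0.40 for Hist2h3c2, -0.27 to 1.35 for Hist1h4h and -0.62 to 0.24 for Hist1h4i. For the other lists it ran from -0.053 to 0.22 for H3f3b, -0.069 to 0.16 for Ncbp2, -0.34 to 0.18 for Npm1, -0.12 to 0.16 for Pcna, -0.27 to 0.076 for Slbp and -0.024 to 0.23 for Ssrp1. The cause of these changes was not tested.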
